A study of Mus musculus with 6 samples.

Results

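Integrins are the cell's receptors for the extracellular matrix, and 10 integrin subunit genes are described here in EO771 cells, a mouse mammary tumour line, with and without recombinant lipocalin-2 (LCN2) protein. The members are 5 alpha subunits (Itga2, Itga3, Itga5, Itga6 and Itgav) and 5 beta subunits (Itgb1, Itgb3, Itgb4, Itgb5 and Itgb7), taken by gene name from a table of 19832 genes. All 10 were found. They were selected on measured values of these same libraries, their levels in the Control and LCN2 columns, so levels and differences of the members are a description and carry no test. A further 15 integrin subunits in the table form a list written with earlier results of these data known. Of these, 3 passed a filter on low values and were tested, and 7 were tested with a lower filter.

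The study has 3 libraries of untreated EO771 cells, called Control, and 3 of EO771 cells given LCN2. They are named Control1 to Control3 and LCN2_1 to LCN2_3, as the labels do. The labels give no dose or exposure time and do not say whether the replicates were separate cultures, so the spread between libraries may be partly technical. All 6 libraries come from 1 cell line, and the comparison asks how its transcripts differ when LCN2 is added. The values are read as FPKM, a level per kilobase of transcript that also allows for library size, so that genes can be set against each other.

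Each integrin is a heterodimer of 1 alpha and 1 beta chain, and the pair sets which ligand is bound. The beta-1 chain pairs with many alpha chains to bind collagen, laminin or fibronectin, the alpha-v chain pairs with several beta chains to bind proteins with an arginine-glycine-aspartate (RGD) sequence, and beta-4 pairs with alpha-6 in the hemidesmosomes that hold epithelial cells to laminin. Talin and kindlin switch integrins on by binding the beta tail, and focal adhesion adaptors then link them to actin and to kinases. Alpha and beta chains must pair before they leave the endoplasmic reticulum, so transcript levels do not give the amount of a dimer at the surface, which was not measured here.

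The start regions of 3 subunit genes are shown. They are those of the largest differences among the 10 members (Itga2 and Itgav) and of the beta chain with which both can pair (Itgb1). Each is the 250 bases before the start site from RefSeq on GRCm38.p6, at chr13:114932101-114932350 (minus strand) for Itga2, chr2:83724147-83724396 (plus strand) for Itgav and chr8:128685404-128685653 (plus strand) for Itgb1. Capitals mark a match on either strand to the AP-1 motif TGANTCA, the TEAD motif GGAATG, the ATF4 motif TGATGNAA or the Sp1 motif GGGCGG.
Itga2: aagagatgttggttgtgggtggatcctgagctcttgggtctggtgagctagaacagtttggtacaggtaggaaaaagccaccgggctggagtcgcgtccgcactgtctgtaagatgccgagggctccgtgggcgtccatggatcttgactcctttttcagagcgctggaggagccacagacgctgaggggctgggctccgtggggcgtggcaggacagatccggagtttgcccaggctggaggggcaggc
Itgav: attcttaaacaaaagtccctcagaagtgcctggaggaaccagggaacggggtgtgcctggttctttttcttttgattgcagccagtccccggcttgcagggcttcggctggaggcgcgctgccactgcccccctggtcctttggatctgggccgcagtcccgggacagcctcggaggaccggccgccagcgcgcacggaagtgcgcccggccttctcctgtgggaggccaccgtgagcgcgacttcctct
Itgb1: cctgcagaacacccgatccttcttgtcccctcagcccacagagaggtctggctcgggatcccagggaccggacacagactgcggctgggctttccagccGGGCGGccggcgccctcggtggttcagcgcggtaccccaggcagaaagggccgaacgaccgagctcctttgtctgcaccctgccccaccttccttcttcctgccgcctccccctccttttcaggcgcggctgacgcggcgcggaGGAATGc
No match to the 4 motifs lies in the windows of Itga2 and Itgav. The Itgb1 window holds 1 Sp1 match and 1 TEAD match. Among the same windows of 32851 RefSeq promoter entries, 6.75% hold the AP-1 motif, 12.6% the TEAD motif, 3.45% the ATF4 motif and 32.7% the Sp1 motif, and no 2 of the marked matches overlap. RefSeq windows were found for 7 of the 10 members, all but Itga6, Itgb3 and Itgb4. A match or its absence describes these letters only.

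The libraries were similar in content, with column sums between 391569 and 410808 and between 13299 and 13461 genes above 0. LCN2_2 stood apart from its group, at 4.33 on the first principal component with LCN2_1 at 15.7, LCN2_3 at 16.5 and the Control libraries between -17.3 and -8.09. Of 7 markers of mammary epithelium 6 were in the table and 5 had a mean of at least 1 FPKM, with a summed level of 1332 to 1403 FPKM in Control and 1289 to 1303 FPKM in LCN2 libraries, without overlap. The keratin genes Krt8 and Krt19 fell by 0.27 and 0.22 on the log2 scale (limma adjusted p = 0.00948 and 0.0222) and Krt18 rose by 0.17 (limma adjusted p = 0.0320), while Epcam differed by -0.22 (limma adjusted p = 0.0539) and Krt7 by -0.03. The cadherin gene Cdh1 was near 0, between 0.0981 and 0.209 FPKM, while the epithelial surface gene Epcam was between 12.4 and 17.1 FPKM. Markers of leukocytes summed to 0.173 to 0.388 FPKM in Control and 0.280 to 0.680 FPKM in LCN2 libraries, and 4 of 5 mast cell markers (Cpa3, Mcpt4, Tpsb2 and Fcer1a) were listed at 0 in all 6 libraries. The summed fibroblast markers were also apart, with a sum of 489 to 545 FPKM in Control and 581 to 612 FPKM in LCN2 libraries. That sum was almost wholly Dcn (485 to 608 FPKM), which rose by 0.30 (limma adjusted p = 0.00636), while Pdgfra differed by -0.15 (limma adjusted p = 0.231) and Pdgfrb was listed at 0. The part of these epithelial and fibroblast genes in the integrin results was not tested. Endothelial markers summed to 0.254 to 0.472 FPKM in Control and 0.270 to 0.660 FPKM in LCN2 libraries. Macrophage markers (8.15 to 10.3 and 9.35 to 9.74 FPKM) were mostly Cd68, and platelet markers (64.2 to 70.6 and 63.0 to 76.0 FPKM) mostly Ppbp.

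In control cells the laminin receptor chains were the most abundant. Itga6 (223 ± 10.3 FPKM, SD, n = 3) and Itgb1 (213 ± 7.80 FPKM) led and their ranges overlapped, followed by Itga3 (143 ± 6.67 FPKM). Itgb4, Itgav, Itgb5, Itga5 and Itga2 followed in that order, between 30.9 and 10.1 FPKM, with no overlap between neighbours. Itgb7 and Itgb3 were near 1 FPKM. In LCN2-treated cells Itgav stood above Itgb4, and Itga2 moved from eighth to sixth place, where its range overlapped those of Itgb4 and Itgb5. The plot of levels by library shows this order.

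**Figure D1:**
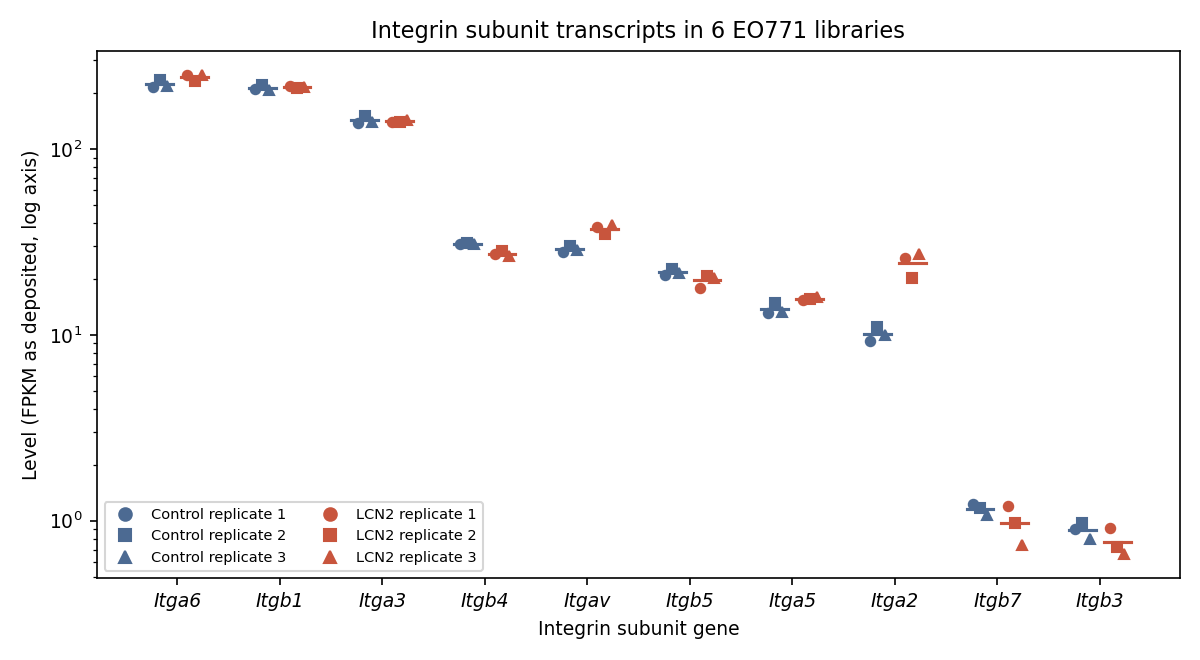
Level of each of the 10 integrin subunits (FPKM as deposited, log axis) in 3 Control (blue) and 3 LCN2 (red) libraries; each symbol is 1 library and each line a group mean. Mean levels in Control and LCN2 libraries are 10.1 and 24.5 FPKM for Itga2 and 28.8 and 37.3 FPKM for Itgav.

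A filter on low values, a mean of at least 1 FPKM, kept 9 of the 10 members and left out Itgb3. Among those kept, Itgb7 was above 1 FPKM in its Control mean (1.15 FPKM) but not in its LCN2 mean (0.972 FPKM). In the limma fit over all genes, on the log2(FPKM + 1) scale after TMM scaling (trimmed mean of M-values, which centres the libraries on the bulk of genes), 4 of these 9 (Itga2, Itga5, Itga6 and Itgav) passed an adjusted p of 0.05, all higher, where 21.4% of all 10309 genes passed in either direction, 11.6% higher and 9.87% lower. The members were chosen with this comparison known, so nothing is read from that count. The count was 2 (Itga2 and Itgav) without Control1, Control3, LCN2_1 or LCN2_3. With values as deposited it was 3, with Itga2 and Itgav higher and Itgb4 lower, and neither Itga5 nor Itga6 passed. Calls over all genes were 1192 higher and 1017 lower, a share of falls of 46.0%. This share was 70.8% with values as deposited and 57.9% with values scaled to column sums, where the median difference of all genes was -0.06 and -0.03. Counted by libraries, the groups were apart in 5 of the 10 members as deposited (3 higher, 2 lower), where 42.7% of all tested genes were apart in either direction, 11.9% higher and 30.8% lower. After scaling they were apart in 7 of the 9 members tested (6 higher, 1 lower), where the shares were 44.5%, 22.6% and 21.8%.

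Itga2, on chromosome 13 (114833081 to 114932100, minus strand), encodes the alpha chain of the collagen receptor alpha-2 beta-1 and differed most among the members. Its level was 9.26, 11.1 and 9.98 FPKM in Control1, Control2 and Control3 and 25.9, 20.3 and 27.4 FPKM in LCN2_1, LCN2_2 and LCN2_3. All LCN2 libraries lay above all Control libraries, with LCN2_2 the lowest of its group. In bulk RNA, more cells with a transcript and more transcript per cell cannot be told apart. The means were 10.1 ± 0.916 and 24.5 ± 3.76 FPKM (n = 3 each), a ratio of 2.43. On the log2(FPKM + 1) scale after scaling the difference was 1.25 (SE 0.11), larger than that of 99.7% of the 10309 genes tested. It lay between 1.16 and 1.38 when each library was left out in turn.

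Itgav, the alpha-v chain shared by the RGD-binding integrins (chromosome 2, 83724397 to 83806916, plus strand), was next among the members. It had 28.0, 30.0 and 28.5 FPKM in the Control libraries and 37.8, 34.9 and 39.1 FPKM in the LCN2 libraries. The groups did not overlap, and LCN2_2 was again the lowest of its group. The log2 difference was 0.42 (SE 0.06), and between 0.38 and 0.47 with 1 library left out. Exons of Itgav overlap those of Gm13684 on the other strand, and the treatment of strand is not given in the sources used here.

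Itga5 and Itga6 were higher by less. Itga5, the fibronectin receptor chain (chromosome 15, 103344286 to 103366763), had 13.2, 14.8 and 13.3 FPKM in Control and 15.5, 15.6 and 16.0 FPKM in LCN2 libraries, with no overlap and a log2 difference of 0.24 (SE 0.05). Itga6, which binds laminin with beta-1 or beta-4 (chromosome 2, 71745616 to 71858416), had 214, 234 and 220 FPKM in Control and 251, 232 and 249 FPKM in LCN2 libraries. As deposited the groups overlapped for Itga6, since Control2 lay above LCN2_2, and after scaling they were apart. Its log2 difference was 0.19 (SE 0.04), and 0.13 with values as deposited.

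Itga3, the other abundant laminin receptor alpha chain (chromosome 11, 95044474 to 95076801), was nearly level, at 137, 150 and 141 FPKM in Control and 140, 140 and 143 FPKM in LCN2 libraries. Its log2 difference was 0.04 (SE 0.04) and turned to -0.02 without scaling between libraries. The groups overlapped as deposited and were apart after scaling.

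Among the beta chains, Itgb1, the common partner (chromosome 8, 128685654 to 128733200), had 210, 221 and 207 FPKM in Control and 219, 212 and 216 FPKM in LCN2 libraries. The groups overlapped as deposited and were apart after scaling, and the log2 difference was 0.08 (SE 0.03), or 0.02 without scaling. Itgb4, the hemidesmosome chain (chromosome 11, 115974709 to 116008412), was lower, at 30.7, 31.3 and 30.7 FPKM in Control and 27.1, 28.4 and 26.6 FPKM in LCN2 libraries. The groups did not overlap on either scale, and the log2 difference was -0.11 (SE 0.04), or -0.17 without scaling. Exons of Itgb4 overlap those of B230344G16Rik on the other strand.

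Itgb5, an alpha-v partner that binds vitronectin (chromosome 16, 33829665 to 33949338), had 20.9, 22.7 and 21.6 FPKM in Control and 18.0, 20.8 and 20.3 FPKM in LCN2 libraries. All LCN2 libraries were below all Control libraries as deposited, but the groups overlapped after scaling, with a log2 difference of -0.08 (SE 0.06). Without LCN2_1 that difference was -0.02. The remaining beta chains were scarce. Itgb3, which pairs with alpha-v (chromosome 11, 104608000 to 104670476), had 0.907, 0.968 and 0.793 FPKM in Control and 0.919, 0.724 and 0.663 FPKM in LCN2 libraries. Itgb7, known for leukocyte homing with alpha-4 or alpha-E (chromosome 15, 102215995 to 102231944), had 1.22, 1.16 and 1.07 FPKM in Control and 1.20, 0.976 and 0.740 FPKM in LCN2 libraries. In both genes the groups overlapped, and LCN2_1 was at the Control level.

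**Figure D2:**
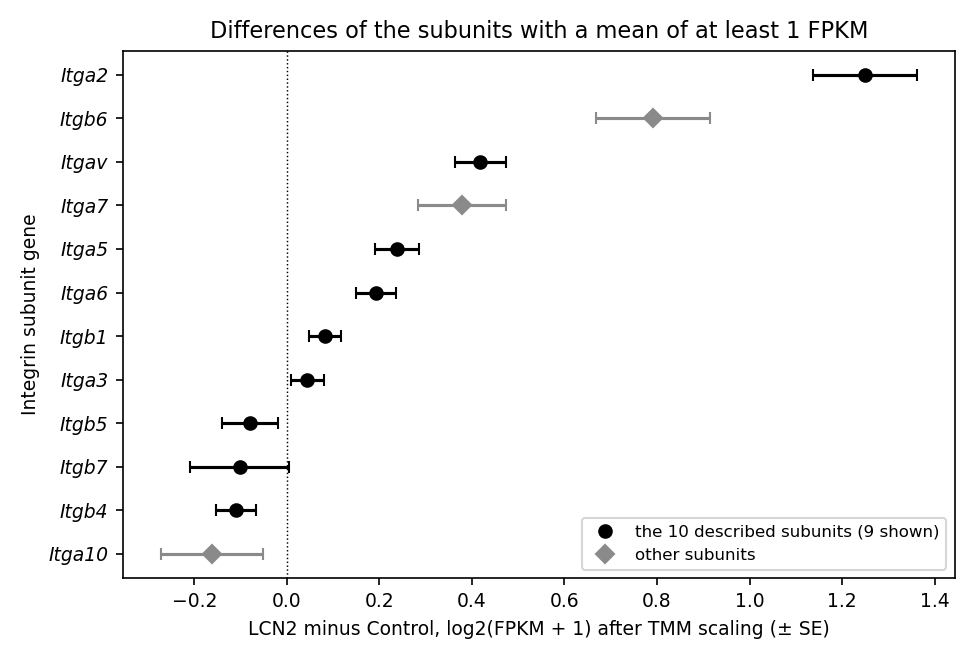
Log2(FPKM + 1) in LCN2 less that in Control libraries after TMM scaling, with its standard error, for 9 of the 10 described subunits (circles) and 3 other subunits (diamonds) with a mean of at least 1 FPKM. The 5 described alpha chains lie between 0.04 and 1.25 (Itga3 is at -0.02 without scaling), and of the beta chains Itgb1 lies at 0.08, above Itga3, and Itgb4, Itgb5 and Itgb7 below 0.

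Setting each alpha gene against its beta partner within a library removes the scaling between libraries. The Itga2 to Itgb1 ratio, for the collagen receptor, was 0.0475 ± 0.00299 in Control and 0.114 ± 0.0162 in LCN2 libraries (n = 3 each). All LCN2 libraries, at 0.118, 0.0956 and 0.127, lay above the Control libraries. As every ratio was below 1, Itga2 had the lower level of the 2 genes in each library. Itgb1 is shared with other alpha chains, so its level is not the amount open to this pair. For the fibronectin receptor, Itga5 to Itgb1 was 0.0646 ± 0.00195 and 0.0728 ± 0.00194. For the laminin receptors, Itga6 to Itgb1 was 1.05 ± 0.0214 and 1.13 ± 0.0306, without overlap, and Itga3 to Itgb1 was 0.671 ± 0.0139 and 0.653 ± 0.0137, with overlap. Of the 5 alpha chains set against Itgb1, 4 had a higher ratio in all LCN2 libraries, where the ratio to Itgb1 was higher without overlap for 13.2% of all tested genes. The 4 share their denominator and were chosen on these values, so nothing is read from that count.

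The ratio of Itga6 to Itgb4, the hemidesmosome pair, was 6.98, 7.49 and 7.16 in Control and 9.27, 8.19 and 9.34 in LCN2 libraries. Itga6 was higher and Itgb4 lower, and the ratios did not overlap. The alpha-v chain was also higher against each of its 3 partners among the members. Itgav to Itgb1 was 0.136 ± 0.00224 and 0.173 ± 0.00837, Itgav to Itgb5 was 1.33 ± 0.0105 and 1.90 ± 0.213, and Itgav to Itgb3 was 32.6 ± 2.90 and 49.4 ± 8.97. In the last pair the beta chain was so scarce that 1 library counts for much, and the LCN2 values ran from 41.2 to 59.0. Over all tested genes the ratio was higher without overlap for 38.4% against Itgb4, 27.9% against Itgb5 and 14.7% against Itgb3.

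**Figure D3:**
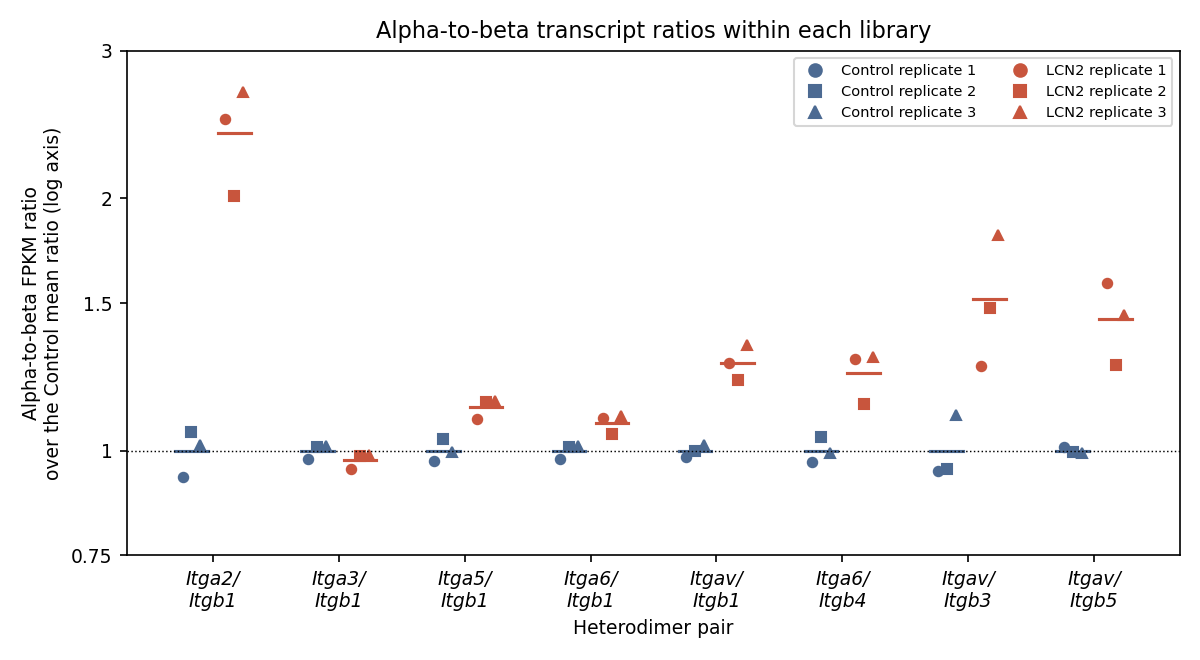
Ratio of alpha to beta FPKM in each library, divided by the mean ratio of the Control libraries (log axis), for the 8 known pairs among the described subunits; symbols are libraries and lines are group means. The symbols of Itga3 with Itgb1 overlap, and the mean ratio of Itga2 with Itgb1 is 0.0475 in Control and 0.114 in LCN2 libraries before division.

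Summed over the 5 alpha members, levels were 402 to 440 FPKM in Control and 443 to 474 FPKM in LCN2 libraries, and summed over the 5 beta members 261 to 278 FPKM and 263 to 267 FPKM. The alpha sum divided by the beta sum was 1.56 ± 0.0322 in Control and 1.75 ± 0.0558 in LCN2 libraries, without overlap between 1.53 to 1.59 and 1.69 to 1.80. Within the alpha sum, Itga2 took 2.42% ± 0.106 in Control and 5.29% ± 0.634 in LCN2 libraries, and Itgav 6.90% ± 0.0695 and 8.06% ± 0.191. The share of Itga3 was 34.1% ± 0.0240 and 30.5% ± 0.978, and that of Itga6 53.3% ± 0.0583 and 52.8% ± 0.553. Itga3 and Itga6 therefore made up most of the alpha transcripts in both groups.

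LCN2_2 was nearer to the controls than its group in the members that differed most. Its step above the Control mean was 61.4% of the mean step of the other 2 LCN2 libraries for Itga2, 62.9% for Itgav and 35.8% for Itga6, while for Itga5 it was 96.4%. The log2 difference without that library was 1.38 for Itga2, 0.47 for Itgav, 0.23 for Itga6 and 0.25 for Itga5.

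Of the 17 other subunits listed, 15 were in the table, and Itga8 and Itgb2 were not analysed here. Only Itga7, Itga10 and Itgb6 had a mean of at least 1 FPKM, Itgb6 through its LCN2 libraries alone, so no count is read at that filter. At a filter of 0.1 FPKM, which both groups passed for each of the 7 subunits then tested, 2 rose and 1 fell in limma, where 17.7% of all 12082 genes passed, 9.80% higher and 7.90% lower. Itgb6, which pairs with alpha-v alone and is known as an epithelial RGD receptor that activates TGF-beta (chromosome 2, 60598292 to 60722643), had 0.455, 0.831 and 0.427 FPKM in Control and 1.75, 1.38 and 1.82 FPKM in LCN2 libraries. Its groups did not overlap. With the filter at 0.1 FPKM it rose by 0.79 on the log2(FPKM + 1) scale (SE 0.11, limma adjusted p = 0.0088), and with no filter the limma adjusted p was 0.021. At the filter of 1 FPKM it was not tested without LCN2_1 or LCN2_3, and with a replicate block its limma adjusted p was 0.052. As Itgb6 rose by more than Itgav, the Itgav to Itgb6 ratio was lower, at 54.8 ± 16.4 in Control and 22.8 ± 2.15 in LCN2 libraries. This pair was added after its values were seen.

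Itga7, a laminin receptor chain best known from muscle (chromosome 10, 128933818 to 128958282), had 4.72, 6.11 and 4.97 FPKM in Control and 7.29, 6.06 and 7.18 FPKM in LCN2 libraries. It rose by 0.38 (SE 0.09, limma adjusted p = 0.0314), although LCN2_2 lay within the Control range as deposited. Its call was lost without Control1, Control3, LCN2_1 or LCN2_3, with a limma adjusted p of up to 0.11, with values as deposited (limma adjusted p = 0.050), with no filter (0.062) and with a replicate block (0.096). Exons of Itga7 overlap those of Mettl7b on the other strand. Itga10, a collagen receptor chain, was at 1.30 ± 0.172 and 1.01 ± 0.197 FPKM (log2 difference -0.16, limma adjusted p = 0.315).

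The leukocyte chain gene Itgam, named after its values were seen, was below the filter at 1.34, 1.12 and 1.09 FPKM in Control and 0.706, 0.631 and 0.839 FPKM in LCN2 libraries. With a filter at 0.1 FPKM it was lower by a log2 difference of -0.31 (limma adjusted p = 0.042), and exons of Gm49368 on the same strand overlap its own. The limma adjusted p of Itgam was 0.049 with no filter. At the filter of 1 FPKM Itgam was tested only without LCN2_1 or LCN2_2, and did not pass (limma adjusted p = 0.15 and 0.10). The partners of beta-7 were scarce too. Itga4 had 0.389, 0.519 and 0.592 FPKM in Control and 0.402, 0.357 and 0.384 FPKM in LCN2 libraries, and Itgae at 0.0522 ± 0.0310 and 0.0576 ± 0.0371 FPKM. Their ratios to Itgb7 overlapped between the groups, at 0.438 ± 0.117 and 0.407 ± 0.0984 for Itga4 and 0.0443 ± 0.0238 and 0.0628 ± 0.0400 for Itgae. Itga9, Itgax and Itgb8 were listed at 0 in every library.

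Genes that work with integrins were taken from 5 lists by role, with earlier results of these data known. In each, counts are set beside the 21.4% of all genes that passed and the median log2 difference of -0.0013 over all genes. As those results were known when the lists were written, the counts describe the lists and are not a test of them. Of 26 tested activation and focal adhesion adaptors, 6 rose and 1 fell (26.9%), with a median log2 difference of 0.05. The kinase Src rose from 38.5 ± 2.90 to 48.9 ± 2.66 FPKM (0.40, limma adjusted p = 0.00889), and Rap1b, a small GTPase that helps to recruit talin, from 78.2 ± 3.97 to 93.6 ± 4.73 FPKM (0.32, limma adjusted p = 0.0104). The scaffold Git1 rose by 0.24 and the actin-linked adaptor Zyx by 0.62, from 23.4 ± 3.72 to 34.8 ± 3.61 FPKM. Parva, which encodes parvin of the integrin-linked kinase complex, was the 1 that fell, by 0.15, and was named after its values were seen. Ilk, the gene of that kinase, rose by 0.24 (limma adjusted p = 0.0148) and was also named after its values were seen. The call of Ilk was lost without LCN2_1 or LCN2_3 (up to 0.064), with values as deposited and with a replicate block. Talin-1 (Tln1) was level at 54.7 and 54.9 FPKM, and kindlin-2 (Fermt2) was at 20.4 and 18.9 FPKM with a log2 difference of -0.04, neither past the threshold and both named after their values were seen. The list count of 7 was 4 without Control3, 1 without LCN2_1 and 3 without LCN2_3. The balance of rises and falls depended on the scaling. With values as deposited 4 rose and 3 fell (median -0.01). With scaling to column sums 6 rose and 2 fell, and with quantile normalization 6 rose and 3 fell. Src passed in each of the 6 left-out fits, Rap1b not without LCN2_1 (limma adjusted p = 0.054), Git1 not without Control3 or LCN2_1 (up to 0.053), Zyx not without LCN2_1 or LCN2_3 (up to 0.063), and Parva in no such fit except the one without LCN2_2 (up to 0.14). Exons of Zyx overlap those of Epha1, and those of Tln1 the exons of Creb3, on the other strand. The same holds for Ilk with Rrp8 and Taf10.

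Of 5 tested hemidesmosome and laminin-332 genes, 2 rose and 0 fell in limma (40.0%, median 0.28), and at an unadjusted p under 0.05 the numbers were 4 and 1. The limma numbers depended on the scaling. With values as deposited 1 rose and 1 fell, and with scaling to column sums or quantile normalization 2 rose and 1 fell. Laminin-332 is the ligand that alpha-6 beta-4 and alpha-3 beta-1 bind under epithelia. Its beta chain Lamb3 rose from 42.5 ± 1.34 to 54.8 ± 1.81 FPKM (0.42, limma adjusted p = 0.00406). The plakin Dst, which anchors hemidesmosomes to keratin, rose from 46.2 ± 4.83 to 53.6 ± 2.48 FPKM (0.28, limma adjusted p = 0.0240). The other plakin, Plec, was lower, at 17.4 and 14.3 FPKM (log2 difference -0.21, limma adjusted p = 0.0568), and was named after its values were seen. Plec was the gene that fell in the other scalings named above, and Dst did not pass with values as deposited. The laminin-332 alpha chain Lama3 was near 0, at 0.0395 and 0.0574 FPKM, also named after its values were seen. Lamb3 passed in each of the 6 left-out fits. The call of Dst was lost without Control1, Control3, LCN2_1 or LCN2_3 (limma adjusted p of up to 0.093), which left a count of 1, and without LCN2_2 the count was 5. Exons of Dst overlap those of A930005N03Rik and Gm26788, and exons of Plec those of Parp10.

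Among 14 tested matrix and cell surface ligands, 8 rose and 1 fell (64.3%, median 0.17). The basement membrane linker Nid1 rose from 52.3 ± 3.29 to 64.8 ± 1.55 FPKM (0.36, limma adjusted p = 0.00565), and Ccn2, a matricellular ligand of alpha-v integrins, from 70.5 ± 9.51 to 115 ± 13.5 FPKM (0.77, limma adjusted p = 0.00734). Vcam1, a ligand of alpha-4 integrins, rose by 0.42 from 20.5 ± 1.71 to 26.5 ± 1.53 FPKM, and Tgfb1, whose latent form is bound by alpha-v integrins, rose by 0.43 from 41.8 ± 0.706 to 54.6 ± 4.98 FPKM. The ligand that fell was Thbs1, by 0.30, from 73.3 ± 8.16 to 56.7 ± 3.16 FPKM. The fibronectin gene Fn1, for the ligand of alpha-5 beta-1, rose by 0.26, a call lost without Control1, Control3, LCN2_1 or LCN2_3 (limma adjusted p of up to 0.091). Nor did Fn1 pass with values as deposited, where its groups overlapped, with quantile normalization, with no filter or with a replicate block. Thbs1 and Fn1 were named after their values were seen. The collagen genes Col4a1 and Col4a2 were at 36.6 and 35.1 FPKM and at 19.1 and 19.3 FPKM, neither past the threshold, Col1a1 was near 0 (0.0587 and 0.104 FPKM), and all 3 were named after their values were seen. Nid1 and Ccn2 passed in each of the 6 left-out fits, Tgfb1 and Vcam1 not without LCN2_1 (limma adjusted p = 0.056 and 0.050), and Thbs1 not without Control3, LCN2_1 or LCN2_3 (up to 0.080). The list count of 9 was 6 without Control1, 4 without Control3, 2 without LCN2_1 and 4 without LCN2_3. With values as deposited 5 rose and 1 fell (median 0.11). Exons of Nid1, Ccn2, Vcam1, Thbs1, Fn1, Col4a1 and Col4a2 overlap those of other annotated genes.

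Of 13 tested surface partners of integrins, 6 rose and 1 fell (53.8%, median 0.09). The tetraspanin Cd82 rose from 23.5 ± 0.662 to 35.8 ± 3.33 FPKM (0.64, limma adjusted p = 0.00459), and Cd47, the integrin-associated protein, from 13.6 ± 0.426 to 17.4 ± 0.439 FPKM (0.40, limma adjusted p = 0.00636). The urokinase receptor Plaur rose by 0.44, and Slc3a2, which binds beta-1 tails and also carries amino acid transporters, by 0.73. Cd9, another tetraspanin, was the 1 that fell, by 0.13, and was named after its values were seen. Cd82 and Cd47 passed in each of the 6 left-out fits. Slc3a2 did not pass without Control3, LCN2_1 or LCN2_3, nor Plaur without these or Control1 (limma adjusted p of up to 0.064 for both), nor Cd9 in any but the fit without LCN2_2 (up to 0.15). The count of 7 was 3 without Control3 and 2 without LCN2_1 and also without LCN2_3. With values as deposited 5 rose and 2 fell (median 0.02). With scaling to column sums or quantile normalization 6 rose and 2 fell. Exons of Cd9 overlap those of Gm26728 on the other strand.

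Of 12 tested trafficking genes, 1 rose and 2 fell (25.0%, median 0.01). The early endosome GTPase Rab5a rose by 0.29 (limma adjusted p = 0.0312), while Snx17, which returns beta-1 integrins from endosomes to the surface, fell by 0.17 (limma adjusted p = 0.0305) and the retromer subunit Vps35 by 0.17 (limma adjusted p = 0.0452). The count of 3 was 1 without Control2, 5 without LCN2_2 and 0 in limma in each of the other left-out fits (3 to 5 at an unadjusted p under 0.05), where the adjusted p reached 0.11 for Rab5a, 0.10 for Snx17 and 0.13 for Vps35. Rab5a with values as deposited did not pass, so that 0 rose and 2 fell in limma (2 and 3 at an unadjusted p under 0.05). Exons of Rab5a, Snx17 and Vps35 overlap those of other annotated genes.

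**Figure D4:**
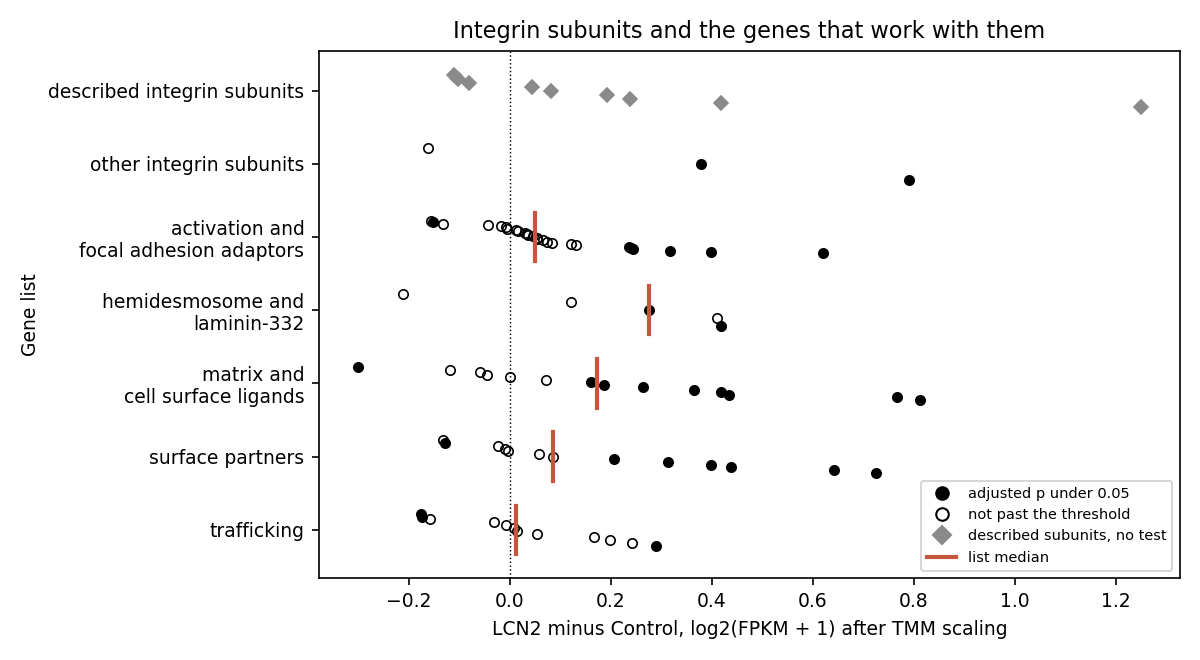
Log2(FPKM + 1) in LCN2 less that in Control libraries after TMM scaling for each tested gene of the described subunits and 6 other lists; filled circles passed an adjusted p of 0.05 in limma, grey diamonds are the described subunits, which carry no test, and red lines are list medians, drawn where no gene entered through 1 group alone. In the ligands 8 genes are filled to the right of 0 and 1 to its left, and the median of the trafficking genes is 0.01.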

How the data were processed

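RNA of 6 EO771 samples (3 Control, 3 LCN2) was sequenced from libraries made with a SMARTer mRNA kit, per the labels' protocols. The authors deposited 1 table named as raw counts, but at most 0.03% of values above 0 in a library were whole (tolerance 1e-09), and values times the longest annotated transcript in kilobases summed to 1032628 to 1095179 per library, so the deposited values were read as FPKM. That unit is inferred. The build was GRCm38 per the submitters' processing notes. Of aligner, quantifier and strand, none is given in the sources used here. Read depth is unknown, so no counting intervals are given. Gene models were from GENCODE M21.

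Values were scaled by TMM without count weights (trims 0.3 and 0.05) and tested as log2(FPKM + 1), pseudocount 1, in the genes whose mean reached 1 FPKM, by limma 3.58.1 in R 4.3.3 with a variance trend and Benjamini-Hochberg adjustment over all 10309 genes, two-sided, called at 0.05. The steps were also run on simulated data, with independent normal values and 200 genes raised. That setting is simpler than these data, so nothing about the calls here is read from it. Means ± SD are of deposited values. Alternatives were 4 other scalings, a pseudocount of 0.1, filters at 0.1 or none, no trend, a replicate block and leaving out each library. The members and the 6 other lists were chosen with earlier results of these data known. Named genes are the members, the partner subunits of known pairs, cell type markers and, in each other list, up to 4 called genes with the smallest adjusted p. The subunits Itga9, Itga10, Itgax and Itgb8 were named outside that rule. Any other gene with a value given is said to be named after its values were seen. Pairs follow known heterodimers.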

Additional observations from a re-analysis of the deposited data

How the results depend on the processing

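As a description of members chosen on these values, the log2 difference with values as deposited was 1.19 for Itga2 and 0.36 for Itgav. With a replicate block the number of genes called fell from 2209 to 267. The block left 2 members, 0 other subunits, 0 adaptors, 1 hemidesmosome gene, 4 ligands, 3 surface partners and 0 trafficking genes. The 0 counts are from limma, where 2 other subunits, 9 adaptors and 5 trafficking genes had an unadjusted p under 0.05 with the block. The main fit was planned without a replicate block. Libraries of the same number did not deviate together (correlations across genes of -0.224, -0.261 and 0.009 for numbers 1, 2 and 3). Deviations from a mean of 3 libraries are tied to one another, so these correlations cannot decide whether the numbers pair the libraries. Without a filter on low values 1464 genes and 1 trafficking gene were called, and with values as deposited 1 other subunit was. After quantile normalization the Itga5 to Itgb1 log2 ratio difference was 0.22 in place of 0.17.

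With 1 library left out, calls ranged from 263 to 3155 over all genes, 2 to 4 for members, 0 to 2 for other subunits, 1 to 10 for adaptors, 1 to 5 for hemidesmosome genes, 2 to 9 for ligands, 2 to 7 for surface partners and 0 to 5 for trafficking genes. The log2 ratio difference ranged from 1.16 to 1.37 for Itga2 to Itgb1, -0.05 to -0.02 for Itga3 to Itgb1, 0.15 to 0.19 for Itga5 to Itgb1, 0.09 to 0.13 for Itga6 to Itgb1, 0.31 to 0.38 for Itgav to Itgb1, 0.27 to 0.37 for Itga6 to Itgb4, 0.45 to 0.71 for Itgav to Itgb3 and 0.44 to 0.60 for Itgav to Itgb5. For Itga4 to Itgb7 it ranged from -0.31 to 0.09 and for Itgae to Itgb7 from -0.12 to 1.02. The cause of these shifts was not tested. Without LCN2_1 or LCN2_3, Itgb6 fell below the filter. Read depth is unknown, which limits what can be said of subunits near or below 1 FPKM.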
